A study of Mus musculus with 36 samples.

Results

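The comparison described here set left ventricles taken at ZT19 against left ventricles taken at ZT07, 12 h apart, in mice whose hearts had been loaded with pressure. Its members were the 6 of 36 expression arrays in the series whose titles name TAC and 1 of these times, 3 at ZT07 and 3 at ZT19. TAC is transverse aortic constriction, a narrowing of the aortic arch that raises the pressure against which the left ventricle pumps and is used as a model of hypertrophy and heart failure. All mice were killed 8 weeks after their operation, and each array carried the RNA of 1 mouse. The series also holds TAC hearts at ZT03, ZT11, ZT15 and ZT23 and SHAM-operated hearts at all 6 times, 3 mice at each. Strain, sex, age and light schedule were not given in the sources used here. No transgene or drug is named in the labels.

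Zeitgeber time (ZT) counts hours from lights on by convention, so that under a standard light schedule ZT07 lies in the rest phase of a mouse and ZT19 in its active phase. Heart muscle cells carry a circadian clock of their own. In it, the activators BMAL1 (gene Arntl) and CLOCK bind E-box sequences and drive the genes of their own repressors, the period and cryptochrome proteins and the nuclear receptors REV-ERB alpha and beta (Nr1d1 and Nr1d2). REV-ERB proteins in turn repress genes with ROR elements, among them Arntl and Nfil3, and the activator DBP and the repressor NFIL3 compete for D-boxes in output genes. Cardiac metabolism, stress resistance and growth signalling are known to change over the day under this clock and under feeding and hormones.

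The deposited values are relative, on a log scale taken as log2, with each probe set centred on a median of 0 over the 18 TAC arrays and separately over the 18 SHAM arrays. A value of 1 therefore means about 2-fold above the middle of the TAC arrays for that gene, and neither the level of a gene after TAC against SHAM nor its level against another gene can be read from it. The medians of the 6 arrays lay between -0.0056 and 0.0072. The SD within a group of 3 had a median over genes of 0.0569 at ZT07 and 0.0787 at ZT19, and it was larger at ZT19 for 65.2% of genes. Precision is limited by the number of arrays, 3 to a group. The p-values of the TAC comparison set a difference against the spread between mice within groups. That spread was estimated from all 18 TAC arrays (residual SD with a median over genes of 0.0942), not from these 6 alone.

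Across 12393 genes, 25 differed between the times at an adjusted p under 0.05 in limma's moderated test with Benjamini-Hochberg adjustment, which was 0.202% of the genes tested. Of these, 16 were higher at ZT19 (0.129%) and 9 were lower (0.0726%). Genes of the circadian clock made up 6 of the 25. The 3 arrays of each time did not overlap for any of the 25. Among all genes 9.67% were higher and 7.71% lower at ZT19 without overlap. The 25 were chosen by a test on the same arrays, so this is no separate evidence. At an unadjusted p under 0.05 there were 894 genes (7.21%), and the median difference of all genes was -0.0020, with 49.1% of them higher at ZT19. The count of 25 fell to between 4 and 10 when any 1 of the 6 arrays was left out: to 9 without ZT07 replicate 1, 4 without ZT07 replicate 2 and 4 without ZT07 replicate 3, and to 6, 8 and 10 without ZT19 replicates 1, 2 and 3. Dbp, Nr1d1, Bhlhe40 and Arhgap24 passed in all 6 of these fits, and 10 of the 25 passed in none.

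**Figure D1:**
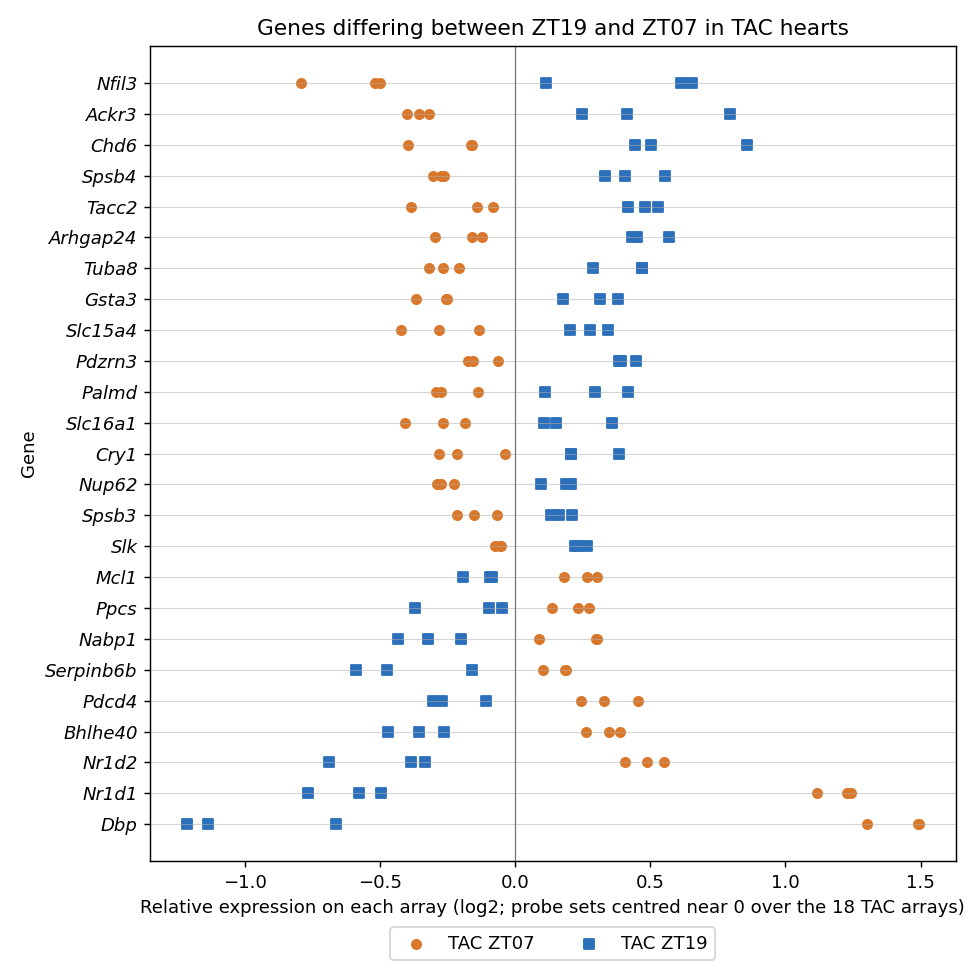
Relative expression (log2, horizontal axis) of the 25 genes that differed between ZT19 and ZT07 in TAC hearts, with 1 point per array, circles for ZT07 and squares for ZT19. The groups of 3 do not overlap for any of these genes, which were chosen by a test on the same arrays. Dbp (fell by 2.43) and Nr1d1 (fell by 1.81) are the most widely separated.

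The clock genes that peak in the day were lower at ZT19. Dbp, the D-box activator and a direct E-box target, had the largest change of any gene: its 3 arrays read 1.30, 1.49 and 1.49 at ZT07 and -0.66, -1.22 and -1.14 at ZT19. All ZT07 arrays were above 1 and all ZT19 arrays below 0. The difference was -2.43 ± 0.27 (SE, n = 3 against 3), a 5.40-fold fall, with an adjusted p of 0.000342.

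Nr1d1, which encodes REV-ERB alpha, read 1.24, 1.12 and 1.23 at ZT07 and -0.50, -0.77 and -0.58 at ZT19. Both groups were tight, and the fall of 3.50-fold (log2 difference -1.81 ± 0.13) had the smallest adjusted p of all genes, 1.74e-06. The partner receptor gene Nr1d2 read 0.41, 0.49 and 0.55 at ZT07 against -0.38, -0.69 and -0.34 at ZT19. That was a smaller fall of 1.93-fold (-0.95 ± 0.16, adjusted p = 0.0244). Bhlhe40, which encodes the E-box repressor DEC1, read 0.35, 0.39 and 0.26 at ZT07 and -0.26, -0.36 and -0.47 at ZT19, so that the groups lay on opposite sides of 0. Its log2 difference was -0.70 ± 0.09 (adjusted p = 0.00149).

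The period genes, whose products inhibit BMAL1 and CLOCK, were all lower at ZT19 on average but did not pass. Per1 read 0.11, 0.62 and 0.57 at ZT07 and -0.28, 0.00 and -0.47 at ZT19. The low ZT07 replicate 1 still lay above the highest ZT19 array, and the difference was -0.68 ± 0.19 (adjusted p = 0.250). Per3 differed by -0.23 ± 0.08 (adjusted p = 0.405) and Per2 by -0.18 ± 0.08 (adjusted p = 0.669). The DBP relatives Tef and Hlf differed by -0.31 ± 0.09 (adjusted p = 0.253) and -0.21 ± 0.11 (adjusted p = 0.750). These are means of probe sets that did not all move alike: those of Per3 ranged from -0.58 to 0.001 and those of Tef from -0.53 to -0.10.

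Higher at ZT19 were a cryptochrome and a repressor of D-boxes. Nfil3 read -0.50, -0.79 and -0.52 at ZT07 and 0.65, 0.61 and 0.11 at ZT19. ZT19 replicate 3 was the lowest of its group yet above every ZT07 array. The rise was 2.09-fold (1.06 ± 0.21, adjusted p = 0.0479). Cry1, whose product is the strongest repressor of BMAL1 and CLOCK among the cryptochromes, read -0.04, -0.21 and -0.28 at ZT07 and 0.21, 0.21 and 0.38 at ZT19, a rise of 0.44 ± 0.08 (adjusted p = 0.0329). Cry2 differed by 0.06 ± 0.08 (adjusted p = 0.945).

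The activator gene Arntl read -0.15, -0.22 and -0.27 at ZT07 and 0.32, 0.22 and 0.19 at ZT19. Its groups did not overlap, but the difference of 0.46 ± 0.11 missed the threshold (adjusted p = 0.131). Clock differed by 0.16 ± 0.08 (adjusted p = 0.726). Of the 19 measured clock genes, 2 rose and 4 fell at the adjusted threshold, against 0.129% and 0.0726% of all genes. Counted by the unadjusted p, 4 were higher and 8 were lower, against 4.22% and 2.99% of all genes, and the median difference of the list was -0.11.

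Over the 6 times the TAC means placed ZT07 and ZT19 near the extremes of these genes. Nr1d1 averaged 1.15 at ZT03, 1.19 at ZT07, 0.15 at ZT11, -0.38 at ZT15, -0.61 at ZT19 and -0.22 at ZT23, so ZT07 and ZT19 held its highest and lowest means. Bhlhe40 had the same order of extremes, from 0.33 at ZT07 to -0.36 at ZT19. For Dbp the highest mean was at ZT07 (1.43) and the lowest at ZT23 (-1.11), a little below ZT19 (-1.0). Arntl was lowest at ZT11 (-0.31) and highest at ZT23 (0.50), so its extremes fell 4 h after both times compared here. A 24 h curve fitted to the 18 TAC arrays passed for 142 genes (1.15%), and 21 of the 25 genes passed it. Those that did not were Serpinb6b, Nabp1, Ppcs and Mcl1, all lower at ZT19. These curves use the same 6 arrays and are no separate evidence.

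**Figure D2:**
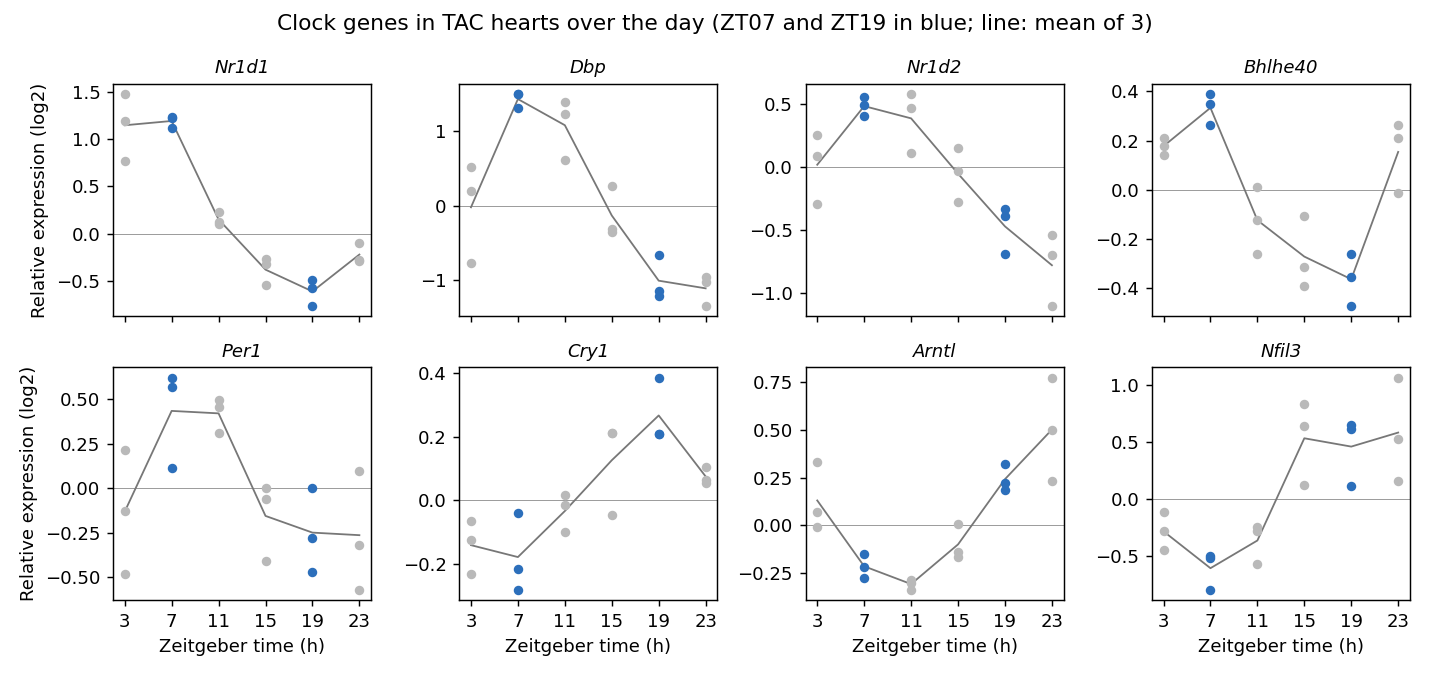
Relative expression (log2, vertical axis, a separate scale for each gene) of 8 clock genes against zeitgeber time (h) in TAC hearts, with 1 point per array, blue for ZT07 and ZT19 and grey for the other times, and a line through the means of 3. Nr1d1 and Bhlhe40 have their highest mean at ZT07 and their lowest at ZT19, while Arntl is lowest at ZT11 and highest at ZT23.

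The stretches before the start sites of 3 of these clock genes are shown because they hold clock motifs next to the start of genes that moved in opposite directions. Each is the 250 bases before the start, 5′ to 3′ on the gene's own strand, from RefSeq on GRCm38.p6, with the motif letters in capitals. The stretch of Cry1 is chr10:85185055-85185304, that of Nr1d1 is chr11:98775378-98775627 and that of Nfil3 is chr13:52981040-52981289, all on the minus strand. In Cry1 the capitals mark a noncanonical E-prime box, read on the other strand, 79 to 74 bases before the start, and a perfect E-box 60 to 55 bases before it. In Nr1d1 they mark an E-prime box, read on the other strand, 28 to 23 bases before the start, and in Nfil3 a ROR element, read on the other strand, 12 to 6 bases before it.
Cry1: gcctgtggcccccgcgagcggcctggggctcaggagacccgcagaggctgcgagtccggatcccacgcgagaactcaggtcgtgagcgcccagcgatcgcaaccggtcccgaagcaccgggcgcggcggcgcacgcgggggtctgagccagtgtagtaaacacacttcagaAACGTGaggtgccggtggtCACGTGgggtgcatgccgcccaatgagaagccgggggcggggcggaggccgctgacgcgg
Nr1d1: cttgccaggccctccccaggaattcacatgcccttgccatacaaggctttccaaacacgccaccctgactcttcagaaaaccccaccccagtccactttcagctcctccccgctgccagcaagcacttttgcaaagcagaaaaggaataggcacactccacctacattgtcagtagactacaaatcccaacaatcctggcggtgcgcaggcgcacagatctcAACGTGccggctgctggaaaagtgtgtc
Nfil3: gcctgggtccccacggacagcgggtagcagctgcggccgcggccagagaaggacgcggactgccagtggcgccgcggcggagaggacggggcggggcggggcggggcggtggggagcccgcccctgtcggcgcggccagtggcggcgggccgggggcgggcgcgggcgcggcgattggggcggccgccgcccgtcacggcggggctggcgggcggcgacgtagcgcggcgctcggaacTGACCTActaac

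RefSeq promoters of 300 bases, from 250 before to 50 after the start, were at hand for 22 of the 25 genes, 14 higher and 8 lower at ZT19. Motifs were searched on both strands. The E-box CACGTG was in 4 of the 14 promoters of genes higher at ZT19 (Cry1, Slc16a1, Spsb3 and Tuba8) and in 0 of the 8 of genes lower, against 10.8% of 9887 measured genes. The E-prime box CACGTT was in Cry1 and Nr1d1, against 5.95% of genes. The ROR elements TAGGTCA or TGGGTCA were in Nfil3, Tuba8 and Ppcs, against 6.76%. The D-boxes TTATGNAA or TTANNTAA, of which some sequences match both, were in Gsta3 alone of the 22, against 7.09%. The heat shock element GAANNTTC, in 7.56% of genes, and the full cAMP element TGACGTCA, in 2.99%, were in none of the 22. Its shorter form TGACGT was in Nabp1 (11.5% of genes) and the glucocorticoid receptor motif AGAACA in Spsb3, Pdcd4 and Ppcs (16.6%). These are matches of letters in the windows at hand, and motifs further away were not searched. A gene with several windows was counted if any of them held the motif.

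Beyond the clock, 14 genes rose from ZT07 to ZT19. Arhgap24, which encodes a GTPase-activating protein that acts on RAC and actin, had the second smallest adjusted p of the comparison. It read -0.16, -0.30 and -0.12 at ZT07 and 0.45, 0.43 and 0.57 at ZT19, a rise of 1.60-fold (0.68 ± 0.07, adjusted p = 0.000266). The ZT07 arrays were all below 0 and the ZT19 arrays all well above it. Ackr3, a scavenger receptor for the chemokine CXCL12, read -0.35, -0.40 and -0.32 at ZT07 and 0.41, 0.25 and 0.80 at ZT19. Its ZT07 arrays were close together and ZT19 replicate 3 stood highest, with a rise of 0.84 ± 0.15 (adjusted p = 0.0333).

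Chd6, a chromatin remodeller, read -0.40, -0.16 and -0.16 at ZT07 and 0.44, 0.86 and 0.50 at ZT19 (0.84 ± 0.16, adjusted p = 0.0479). Tacc2, a coiled-coil protein of centrosomes and microtubules, read -0.08, -0.39 and -0.14 at ZT07 and 0.48, 0.53 and 0.42 at ZT19 (0.68 ± 0.13, adjusted p = 0.0484). Spsb4, a substrate receptor of a ubiquitin ligase, read -0.27, -0.30 and -0.26 at ZT07 and 0.40, 0.33 and 0.56 at ZT19 (0.71 ± 0.13, adjusted p = 0.0329). In these 3 genes the ZT07 arrays were all below 0 and the ZT19 arrays all above it.

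The rule for named genes took 6 more genes of this direction. Tuba8, an alpha-tubulin, rose by 0.67, Gsta3, a glutathione transferase, by 0.58, and Slc15a4, a lysosomal transporter of histidine and peptides, by 0.55. Pdzrn3, a ubiquitin ligase, rose by 0.54, Palmd, which encodes palmdelphin, by 0.51, and Slc16a1, the lactate and pyruvate transporter MCT1, by 0.49. Their adjusted p lay between 0.0170 and 0.0479. The remaining 3, named after their values were seen, were Nup62 of the nuclear pore (0.42), the kinase gene Slk (0.30) and Spsb3, a relative of Spsb4 (0.31). For some genes the probe sets did not all move alike: those of Nup62 ranged from -0.07 to 0.66 and those of Slk from 0.10 to 0.56, 4 probe sets each. Those of Gsta3 rose by 0.91 and 0.25.

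Outside the clock, 5 genes fell. Pdcd4, a repressor of translation that binds the helicase eIF4A, read 0.46, 0.33 and 0.25 at ZT07 and -0.31, -0.11 and -0.27 at ZT19 (-0.57 ± 0.11, adjusted p = 0.0479). Serpinb6b, a protease inhibitor, read 0.19, 0.18 and 0.10 at ZT07 and -0.16, -0.47 and -0.59 at ZT19 (-0.57 ± 0.11, adjusted p = 0.0479). Nabp1, a protein that binds single-stranded DNA, read 0.09, 0.30 and 0.30 at ZT07 and -0.20, -0.32 and -0.43 at ZT19 (-0.55 ± 0.09, adjusted p = 0.0243). In all 3 the ZT07 arrays were above 0 and the ZT19 arrays below.

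Ppcs, an enzyme of coenzyme A synthesis, fell by 0.38 (adjusted p = 0.0479), and Mcl1, an inhibitor of apoptosis of the BCL2 family, by 0.37 (adjusted p = 0.0485). All 6 probe sets of Mcl1 were lower at ZT19, by log2 differences from -0.55 to -0.21. Just inside the threshold stood Nfil3, Tacc2 and Mcl1. Just outside it stood Gpr146, an orphan receptor (-0.49, adjusted p = 0.0519), and Scd2, a desaturase of fatty acid synthesis (0.65, adjusted p = 0.0608). A fold of at least 1.5 on top of the adjusted p left 11 genes (0.0888%), 7 higher and 4 lower.

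The same comparison in the SHAM hearts, fitted on the 18 SHAM arrays alone, called 627 genes (5.06%), 360 higher at ZT19 (2.90%) and 267 lower (2.15%). The residual SD had a median over genes of 0.0942 in TAC and 0.0772 in SHAM, so the TAC test had the wider errors. Of the 25 TAC genes, 19 also passed in SHAM in the same direction, 76.0% of the TAC list and 3.03% of the SHAM list. Of the 25, 24 had the same sign in SHAM, Tacc2 being the exception. Of the 627 SHAM genes, 88.4% had the same sign in TAC, against 65.1% of all genes. A call in SHAM without one in TAC does not show a difference, which was tested by itself.

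The 6 clock genes that passed in TAC passed in SHAM in the same direction. Dbp differed by -2.43 ± 0.27 in TAC and -2.46 ± 0.15 in SHAM, and the TAC minus SHAM value was 0.03 ± 0.33. Nr1d1 differed by -1.81 ± 0.13 and -2.12 ± 0.08, and the TAC minus SHAM value of 0.31 ± 0.16 did not pass (adjusted p above 0.99, unadjusted p = 0.0594). Nfil3 rose by 1.06 ± 0.21 and 1.02 ± 0.10. Of the 19 clock genes 11 passed in SHAM, against 5.06% of all genes, and 0 passed in limma's test of the difference. A p that misses the threshold does not show equal differences, and the SE of the difference was 0.33 for Dbp.

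**Figure D3:**
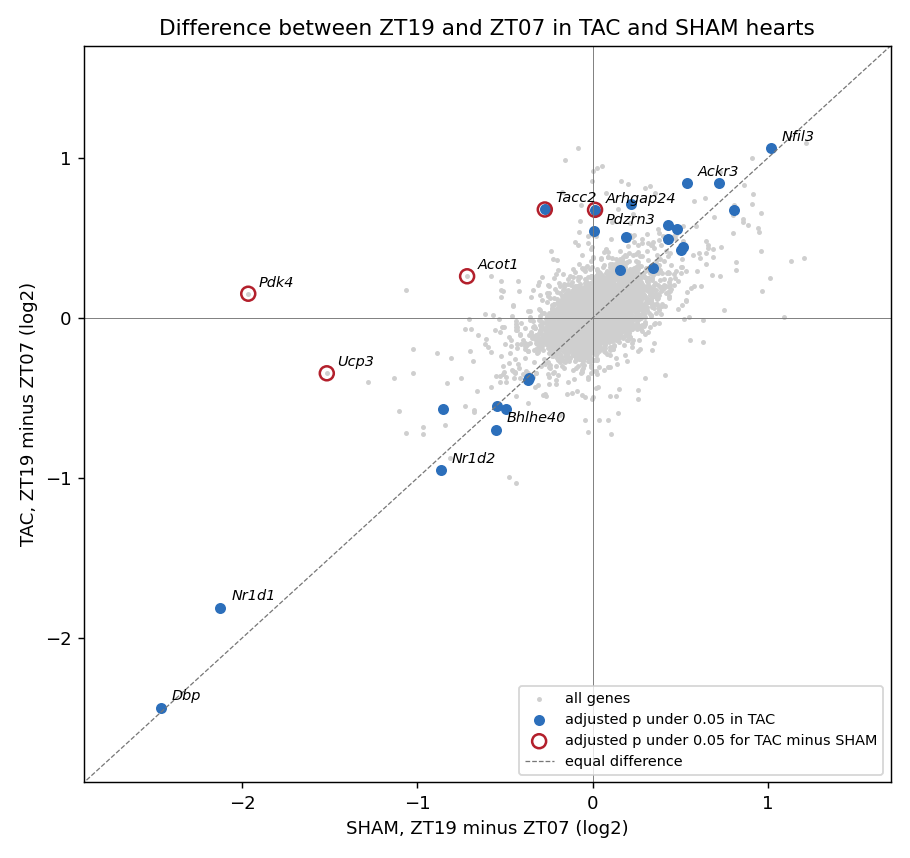
Difference between ZT19 and ZT07 (log2) in TAC hearts (vertical axis) against SHAM hearts (horizontal axis) for all 12393 genes, with blue points for the 25 that passed in TAC and red circles for the 5 that passed for TAC minus SHAM. Dbp and Nr1d1 lie near the line of equal difference, whereas Pdk4 and Ucp3 lie far to the left of it, with SHAM differences of -1.96 and -1.52.

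For 5 genes (0.0403%, with 4.24% at an unadjusted p under 0.05) the ZT19 minus ZT07 difference was not the same in TAC and SHAM at an adjusted p under 0.05. Arhgap24 rose in TAC by 0.68, while its SHAM arrays read 0.06, -0.08 and -0.00 at ZT07 and 0.05, -0.06 and 0.04 at ZT19. The SHAM groups overlapped, and the difference between surgeries was 0.66 ± 0.09 (adjusted p = 0.000240). Tacc2 was higher at ZT19 in TAC and lower in SHAM, where it read 0.31, 0.46 and 0.20 at ZT07 and 0.01, 0.04 and 0.11 at ZT19. The SHAM difference of -0.27 ± 0.10 did not pass by itself (adjusted p = 0.166), and the difference between surgeries was 0.95 ± 0.18 (adjusted p = 0.0215).

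The other 3 are genes of fatty acid use that fell in SHAM and did not pass in TAC. Ucp3, a mitochondrial carrier that rises with fatty acid supply, read 1.20, 1.34 and 0.98 at SHAM ZT07 and -0.28, -0.44 and -0.31 at SHAM ZT19. In TAC it read 0.55, 0.14 and 0.27 at ZT07 and -0.21, 0.08 and 0.07 at ZT19, without overlap but by a smaller step. Its difference was -1.52 ± 0.12 in SHAM and -0.35 ± 0.13 in TAC (adjusted p = 0.509), and TAC minus SHAM was 1.17 ± 0.19 (adjusted p = 0.00477).

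Pdk4, the kinase that shuts off pyruvate dehydrogenase in fasting, read 1.46, 2.06 and 1.69 at SHAM ZT07 and -0.61, -0.03 and -0.03 at SHAM ZT19. The TAC arrays overlapped widely, with 0.85, -0.51 and 0.04 at ZT07 and -0.05, 0.43 and 0.46 at ZT19. The difference was -1.96 ± 0.20 in SHAM, 0.15 ± 0.28 in TAC (adjusted p = 0.955) and 2.12 ± 0.37 between surgeries (adjusted p = 0.0132). Acot1, which splits fatty acyl-CoA, read 0.73, 0.68 and 0.53 at SHAM ZT07 and 0.05, -0.30 and 0.06 at SHAM ZT19, and in TAC 0.20, 0.05 and -0.02 at ZT07 and 0.05, 0.53 and 0.44 at ZT19. TAC minus SHAM was 0.98 ± 0.18 (adjusted p = 0.0215). Acot1 has a near-identical neighbour, Acot2, and their probe sets may share signal. The next gene by p, Hsd17b11, did not pass (0.59 ± 0.13, adjusted p = 0.211).

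Only Arhgap24 and Ucp3 of the 5 passed in all 12 fits that left out 1 array of the 4 groups. Leaving out 1 array gave between 2 and 5 genes: 2 without SHAM ZT07 replicate 2 or without replicate 2 or 3 of either TAC time, and 3 without SHAM ZT07 replicate 1 or without SHAM ZT19 replicate 1 or 2. The summed markers of atrial muscle were higher at ZT19 in both surgeries, and with their mean as a covariate 0 of the 12393 genes passed in limma's test (444 at an unadjusted p under 0.05). The differences between surgeries were then 0.62 for Arhgap24 (adjusted p = 0.206), 0.87 for Ucp3, 1.52 for Pdk4, 0.64 for Acot1 and 0.43 for Tacc2. The SHAM arrays had atrial means of -0.28, -0.68 and -0.41 at ZT07 and 0.18, 0.13 and 0.16 at ZT19. This covariate thus overlaps with the time contrast, and a lost call in its fits cannot be read alone. What part atrial tissue had in these differences was not tested. Without the 4 arrays with high fat cell markers, TAC ZT19 replicate 2 among them, Arhgap24 alone passed, and Ucp3 and Pdk4 each had an adjusted p of 0.0712.

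**Figure D4:**
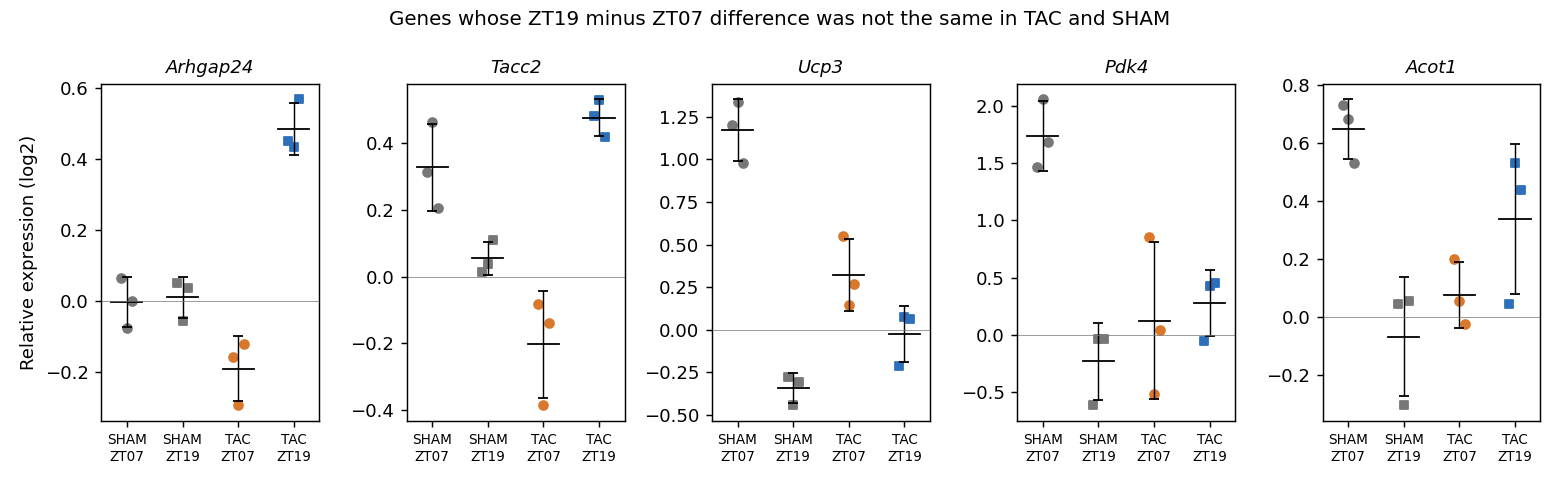
Relative expression (log2, vertical axis, a separate scale for each gene) on each array of the 4 groups for the 5 genes whose ZT19 minus ZT07 difference differed between TAC and SHAM, with points for arrays, long bars for means and error bars of 1 SD (n = 3). Values were centred within each surgery, so only the step between ZT07 and ZT19 can be compared between surgeries: in Pdk4 it is -1.96 in SHAM and 0.15 in TAC.

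The genes of fasting and of the nuclear receptor PPAR alpha, which turns on fatty acid use, were examined as a list of 22 measured members. None passed in TAC, where 15 were higher at ZT19 and the median difference was 0.06. Without ZT07 replicate 2 the TAC median was -0.007, with 12 of 22 lower. In SHAM 5 were higher, where 40.2% of all genes were, with a median of -0.12. There 8 passed lower, against 2.15% of all genes, and 1 passed higher, against 2.90%. The TAC minus SHAM difference was above 0 for 18 of 22, against 55.8% of all genes, and 11 had it at an unadjusted p under 0.05, against 2.95% of all genes. Beside Ucp3, Pdk4 and Acot1 these were Acot2 (0.84), the droplet coat gene Plin5 (0.62), Mlycd (0.53), the fatty acid transporter Cd36 (0.47), Ehhadh (0.46), Angptl4 (0.36), the carnitine transferase Cpt1a (0.24) and the binding protein Fabp3 (0.17), listed here by that p after it was seen. The median TAC minus SHAM difference of the list was 0.20. With the atrial covariate it was 0.09, 13 of 22 were above 0, and at an unadjusted p under 0.05 there were 4 above 0 and 1, Ppara, below. Without the arrays high in fat cell markers 17 were above 0, and 10 were above and 1 below at that p.

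The 16 mitochondrial enzymes of fatty acid oxidation had small differences, mostly of opposite sign in the surgeries. None passed in TAC or in SHAM, and 0 had an unadjusted p under 0.05 in TAC. At ZT19 14 were higher in TAC (median 0.10), against 49.1% of all genes, and 1 in SHAM (median -0.09), against 40.2%. Their mean on each TAC array was 0.04, -0.07 and 0.02 at ZT07 and 0.02, 0.14 and 0.10 at ZT19, so the groups overlapped. The difference between surgeries was above 0 for all 16 (median 0.17), against 55.8% of all genes. It had an unadjusted p under 0.05 for 2, against 2.95% of all genes above 0. With the atrial covariate the difference was above 0 for 9 of 16. The TAC median of these enzymes was 0.06 without ZT07 replicate 2 and 0.06 without ZT19 replicate 2, the array high in fat cell markers. Oxidative phosphorylation subunits were higher at ZT19 for 37 of 39 members in TAC (median 0.07, 3 higher at an unadjusted p under 0.05, against 4.22% of all genes), and enzymes of the tricarboxylic acid cycle for 18 of 19 (median 0.08), with 0 passing in limma's test of either list. Without ZT19 replicate 2 the median of the tricarboxylic acid cycle was 0.04. Of 20 genes of glucose uptake and glycolysis 17 were higher. The enzyme gene Pgam1 had the smallest p among them, with a difference of 0.78 ± 0.17 (adjusted p = 0.0912) against 0.91 ± 0.12 in SHAM.

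Chaperone genes were higher at ZT19 in TAC as a group, with no member past the adjusted threshold. Of 23 heat shock genes 21 were higher, 16 without overlap of the arrays against 9.67% of all genes, and the list median was 0.17. At an unadjusted p under 0.05, 8 were higher, against 4.22% of all genes. Hsp90aa1, the inducible HSP90, read -0.07, -0.07 and -0.24 at ZT07 and 0.51, 0.35 and 0.58 at ZT19 (0.60 ± 0.17, adjusted p = 0.253). The groups did not overlap, and the SE uses the spread of all 18 TAC arrays. Chordc1, an HSP90 partner, differed by 0.58 and the co-chaperone gene Dnajb4 by 0.49. In SHAM 22 of the 23 were higher (median 0.28) and 13 passed, against 2.90% of all genes. In the test of the difference between surgeries 0 members passed.

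Genes of the endoplasmic reticulum stress response showed the same order, 20 of 24 higher with a median of 0.14 and 7 higher at an unadjusted p under 0.05, against 4.22% of all genes. Among them Manf, a secreted factor of that response, differed by 0.71 ± 0.18 (adjusted p = 0.201) and Hspa5, the lumenal chaperone BiP, by 0.51 ± 0.14 (adjusted p = 0.253). All 8 measured subunits of the TCP1 chaperonin ring were higher, by a median of 0.10 (0.07 without ZT07 replicate 3), with 0 at an unadjusted p under 0.05.

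Matrix genes were lower at ZT19 on average, but not on every array. Of 36 genes of fibrillar collagen and matrix 30 were lower, 13 without overlap (7.71% of all genes) and 5 at an unadjusted p under 0.05 (2.99%). The median of the 36 was -0.19 against 0.01 in SHAM. Their mean on each array was 0.01, 0.18 and -0.04 at ZT07 and 0.02, -0.19 and -0.33 at ZT19, so ZT19 replicate 1 was not low. The median was -0.32 without that array, but -0.15 without ZT07 replicate 2 and -0.16 without ZT19 replicate 3. The median TAC minus SHAM difference of the list was -0.28. At an unadjusted p under 0.05 there were 4 members below 0 and 1 above, against 4.24% of all genes in both directions together. Without TAC ZT19 replicate 3 the median difference was -0.18, with 0 members below 0 and 1 above at that p. Without TAC ZT19 replicate 1 there were 8 below and 1 above. With the atrial covariate the median was -0.13, with 0 members at that p and 0 past the adjusted threshold in limma's test. Col3a1, a fibrillar collagen, differed by -0.72 ± 0.32 (adjusted p = 0.638) and Col15a1, a collagen of the vessel and muscle border, by -0.63 ± 0.21 (adjusted p = 0.399). The 14 activated fibroblast genes split ZT19 more widely, with array means of 0.28, -0.36 and -0.36, against -0.07, 0.17 and -0.07 at ZT07. Postn, the periostin gene, read 0.45, -0.80 and -0.99 at ZT19, and Myh7, the slow myosin that rises with load, read 0.17, -1.44 and -1.31. In a bulk sample fewer cells of a type and less RNA per cell cannot be told apart.

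Genes of hypertrophy and muscle stress held several large differences that missed the threshold. Xirp1, which binds actin at intercalated discs, read -0.33, -0.46 and -0.34 at ZT07 and 0.72, 0.19 and 0.53 at ZT19. Its difference was 0.85 ± 0.19 in TAC (adjusted p = 0.101) and -0.00 ± 0.07 in SHAM, and the difference between surgeries did not pass (adjusted p = 0.318). Tnfrsf12a, the receptor for the cytokine TWEAK, read -0.31, -0.53 and -0.32 at ZT07 and 0.35, 0.18 and 0.67 at ZT19, a difference of 0.79 ± 0.21 (adjusted p = 0.206) against -0.18 ± 0.10 in SHAM. For both genes every ZT19 array was above every ZT07 array. In the other direction, the titin cap gene Tcap differed by -0.72 ± 0.19 and the atrophy ubiquitin ligase Fbxo32 by -0.72 ± 0.18 (adjusted p = 0.226 and 0.143); in SHAM both passed, with -1.06 and -0.97. Across the list of 20 hypertrophy and fetal genes 14 were higher, 3 of them at an unadjusted p under 0.05, where 49.1% and 4.22% of all genes were. The differences of the 20 ran from -1.03 to 1.09, with a median of 0.07 in TAC and 0.07 in SHAM. Their mean on each array was -0.15, -0.07 and -0.12 at ZT07 and 0.31, -0.09 and 0.01 at ZT19. The groups overlapped, and ZT19 replicate 1 stood highest.

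**Figure D5:**
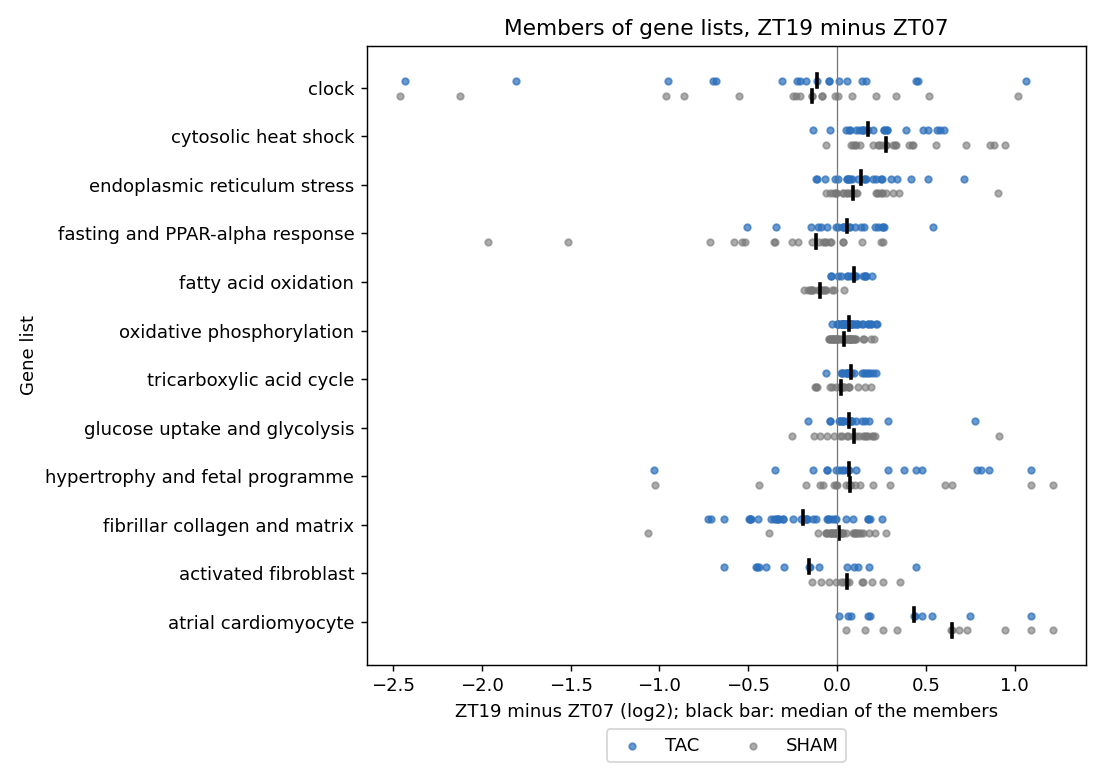
ZT19 minus ZT07 differences (log2, horizontal axis) of the measured members of 12 gene and marker lists, 1 point per gene, blue for TAC and grey for SHAM, with a black bar at each median. The clock list spreads widely in both surgeries, the medians of the fatty acid oxidation genes lie on opposite sides of 0 (0.10 in TAC and -0.09 in SHAM), and the matrix genes lie lower in TAC (-0.19) than in SHAM (0.01).

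Markers of other cells and tissues were set beside these results. All 11 measured atrial muscle genes were higher at ZT19 in TAC, with a median of 0.43 (0.24 without ZT19 replicate 1). At an unadjusted p under 0.05 there were 4 of them, against 4.22% of all genes, 0 passed the adjusted threshold in limma's test, and 7 did not overlap, against 9.67%. Their mean per array was -0.28, -0.14 and -0.07 at ZT07 and 0.43, 0.25 and -0.00 at ZT19. ZT19 replicate 3 stood nearest to the ZT07 arrays. The atrial light chain Myl7 had the largest difference among them, 1.09 ± 0.39 (adjusted p = 0.449). In SHAM all 11 were higher too, with a median of 0.65 and 7 passing, against 2.90% of all genes. With the atrial mean as a covariate 34 genes passed in TAC, 14 of them among the 25, and Dbp, Nr1d1, Nr1d2, Bhlhe40 and Arhgap24 were among those 14, whereas Nfil3, Cry1, Chd6 and Tacc2 no longer passed. The differences were then 1.13 for Nfil3 (adjusted p = 0.139) and 0.48 for Cry1 (adjusted p = 0.0797), no smaller than without the covariate, and 0.55 for Chd6 (adjusted p = 0.363) and 0.50 for Tacc2 (adjusted p = 0.357). The atrial mean itself differed between the times, so a lost call in this fit cannot be read alone.

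Fat cell markers stood high on 1 array: the mean of 7 was 1.06 in ZT19 replicate 2, against -0.34 and -0.30 in the other ZT19 arrays and -0.44 to 0.12 at ZT07. Without the 3 TAC arrays whose mean exceeded 1, 9 genes passed. Markers of thymocytes and airway lay between -0.11 and 0.04 on the 6 arrays, and leaving out the 2 TAC arrays of other times with a mean above 1 gave 41 genes. The 13 ventricular muscle genes had array means from -0.01 to 0.10; centred values do not show whether a marker is present, so the labelled tissue could not be checked by level. The 12 endothelial genes had a median of 0.23, with Eng, a coreceptor of BMP9, closest to the threshold (0.41, adjusted p = 0.0703). At ZT19 9 of them were higher and 3 lower, against 49.1% of all genes higher, with differences from -0.30 to 0.46. In SHAM their median was 0.17. There 2 passed higher and 1 lower, against 2.90% and 2.15% of all genes. The part of tissue makeup in the other results was not tested beyond these fits.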

How the data were processed

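The data were single-channel Affymetrix arrays of left ventricle RNA, 1 mouse each. Trizol was used on the frozen hearts and 6 ug of total RNA went into each biotin labelling, per the labels' protocols. The authors deposited values on a log scale, taken here as log2, for 22690 probe sets; how probes were summarised and normalized, and the log base, were not given in the sources used here. In the deposited log2 values each probe set had a median of 0 within each surgery, so levels after TAC and SHAM were not compared, no filter on dim genes was possible and depth does not apply. Groups came from the sample titles.

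A single gene symbol was found for 20393 probe sets, of which 13 controls were dropped. Probe sets with several symbols (691) or without an entry (1606) were not used. Names came from the platform annotation, with 20351 of 20380 matched through Entrez identifiers to RefSeq (GRCm38.p6) and 0 changed. The mean over its probe sets stood for each of the 12393 genes, 4956 of which had more than 1.

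Group means were fitted with limma 3.58.1 in R 4.3.3 to the 18 TAC arrays (12 residual degrees of freedom), empirical Bayes without a trend, with Benjamini-Hochberg adjustment over all genes and a threshold of 0.05. The 18 SHAM arrays were fitted alike, and the difference between surgeries came from 1 model of all 36 arrays. The fits were tested on simulated data. The members, the 34 gene lists and the 21 marker lists were chosen with earlier results of these data known. The text names up to 12 genes with the largest rise and 12 with the largest fall among those that passed, all measured clock genes, up to 4 members of each list by p, the 6 smallest p for TAC minus SHAM, and up to 2 members of each marker list by size. Lists are described by counts and medians. Alternatives were other estimates of spread, quantile normalization, median centring, array weights, variance priors, the replicate number as a block, other rules for probe sets, an SD filter, a fold minimum of 1.5, a 24 h curve and leaving out arrays. Covariates of marker means and leaving out arrays by markers were added after the data had been seen. Figures were drawn with matplotlib 3.10.9.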

Additional observations from a re-analysis of the deposited data

Results flagged for a closer look

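For 5 genes the ZT19 minus ZT07 difference was not the same in TAC and SHAM hearts by limma's interaction test over all 36 arrays, adjusted by Benjamini-Hochberg over all genes. The difference between surgeries (TAC minus SHAM, log2) was 0.66 ± 0.09 for Arhgap24 (adjusted p = 0.000240), 1.17 ± 0.19 for Ucp3 (adjusted p = 0.00477), 2.12 ± 0.37 for Pdk4 (adjusted p = 0.0132), 0.98 ± 0.18 for Acot1 (adjusted p = 0.0215) and 0.95 ± 0.18 for Tacc2 (adjusted p = 0.0215). All 3 TAC arrays of ZT19 were above all 3 of ZT07 for Arhgap24 and Tacc2, and all 3 SHAM arrays of ZT19 were below all 3 of ZT07 for Ucp3, Pdk4, Acot1 and Tacc2. The 5 genes were chosen by a test on the same arrays, so this is no separate evidence. Among all genes 9.67% were higher and 7.71% lower at ZT19 without overlap in TAC. The share in SHAM is not given here. Groups of 3 are too small for a test of single arrays that stand apart.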

How the results depend on the processing

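The count of 25 genes in TAC was 86 with all 36 arrays in the fit, 74 with the 6 arrays alone, 114 after quantile normalization, 15 with arrays centred on their median, 256 with array weights (whose estimation did not fully converge), 12 with the probe set of largest SD, 11 with a fold of at least 1.5 and 142 with the 24 h curve. Alternatives chosen after seeing the data gave 41 without arrays high in thymocyte or airway markers, 9 without arrays high in fat cell markers and 14 with the fat cell mean as a covariate. Leaving out 1 array gave 4 to 10 genes, and leaving out all TAC arrays of 1 replicate number gave 1 to 6. The causes of these shifts were not tested, except that leaving out arrays removes samples. The SHAM count of 627 ranged from 353 to 431 with 1 array left out. The 5 genes of the difference between surgeries became 63 with array weights, 10 after quantile normalization, 22 with the 12 arrays alone, 1 without arrays high in fat cell markers and 0 with the atrial covariate (444 at an unadjusted p), and 2 to 5 with 1 array left out. Single genes (206) were refitted with 1 array left out, array weights, quantile normalization, median centring, a robust variance prior, the replicate block, the marker covariates and without the arrays high in markers. No called difference turned its sign there. Among the 3090 values 171 lost their call and 72 gained one. Only values of the 25 called genes could lose a call, so the 171 are not a share of the 3090. Whether a replicate number marks arrays handled together is not said in the sample titles. Deviations of same-numbered TAC arrays of ZT07 and ZT19 correlated at -0.01, -0.09 and 0.03, and those of other numbers between -0.07 and 0.09. Other times and SHAM were not checked in this way. With a replicate block 27 genes passed in TAC, 712 in SHAM and 7 for the difference between surgeries.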

Other observations

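No gene of the amino acid transport, signalling, vascular, immune or RNA processing lists passed in TAC by limma's test at an adjusted p under 0.05, and the values given here are descriptions. Slc38a2, a neutral amino acid transporter, came nearest: it read -0.46, -0.53 and -0.50 at ZT07 and 0.40, -0.00 and 0.59 at ZT19, a difference of 0.83 ± 0.18 (adjusted p = 0.0747) against 0.33 in SHAM. ZT19 replicate 2 was the lowest of its group and still above the ZT07 arrays. Smad6, an inhibitor of BMP signalling, differed by 0.48 ± 0.11 (adjusted p = 0.137), and Irs1, an adaptor of the insulin receptor, by 0.43 ± 0.10 (adjusted p = 0.143). Among vascular and vasoactive genes the peptide hormone gene Adm differed by 0.66 ± 0.19 (adjusted p = 0.288) and the growth factor gene Vegfa by 0.51 ± 0.16 (adjusted p = 0.349), with SHAM differences of 0.96 and 0.46. Corin, the protease that activates natriuretic peptide, differed by 0.51 in TAC (adjusted p = 0.401) and -0.02 in SHAM. Tlr4, a sensor of bacterial lipid, read -0.25, -0.19 and -0.12 at ZT07 and 0.44, 0.14 and 0.22 at ZT19, so the groups did not overlap (0.46 ± 0.13, adjusted p = 0.253). Its SHAM difference was -0.08.

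Of 26 genes of splicing and cold response 15 were higher at ZT19. At an unadjusted p under 0.05, 2 were higher, against 4.22% of all genes, and 5 were lower, against 2.99%. Without ZT19 replicate 2, 14 of the 26 were lower. Srsf5, a splicing factor, read 0.38, 0.15 and 0.33 at ZT07 and -0.45, -0.01 and -0.42 at ZT19, a difference of -0.58 ± 0.17 (adjusted p = 0.284) against -1.11 in SHAM. Among genes that brake the cell cycle, Ccng2 differed by -0.36 and Gadd45a by -0.53 (adjusted p = 0.246 and 0.439). Of 20 glucocorticoid targets 15 had a TAC minus SHAM difference above 0, against 55.8% of all genes. At an unadjusted p under 0.05 there were 5, all above 0, against 2.95% of all genes. These were Pdk4, which is also in the fasting list, Klf9 (0.42), Glul (0.45), Zbtb16 (0.75) and Cebpb (0.67), named after their values were seen. With the atrial covariate 10 of 20 were above 0, and Pdk4 alone had an unadjusted p under 0.05. Without TAC ZT07 replicate 1, 11 of 20 were above 0, near the share of all genes, and at that p 5 were above and 1 below. The median of the 20 was then 0.06, against 0.14 with all arrays. In TAC itself these targets went both ways, with 0.68 for Fkbp5, which binds the hormone's receptor, and -0.59 for the metallothionein gene Mt2 (adjusted p = 0.399 and 0.570). Cytosolic ribosomal proteins were higher at ZT19 for 21 of 27 members (median 0.05, and 0.01 without ZT07 replicate 3). Proteasome subunits were higher for 22 of 32 (median 0.03), but without ZT19 replicate 1 the median was -0.0022 and 17 of 32 were lower.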
